A study of Mus musculus with 15 samples.

Results

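The mouse genes that encode the proteasome and its helpers were taken from the deposited expression table by their symbols, which start with Psma, Psmb, Psmc, Psmd, Psme, Psmf or Psmg followed by a number. The rule found 49 of the 34372 genes in the table, after 4 symbols marked as pseudogenes were dropped. Of the 49, 48 are proteasome genes, and Psmc3ip is a meiotic recombination factor that only shares the start of its symbol. The study compared pluripotent lines derived from primordial germ cells (embryonic germ cells, EGC) with genetically matched embryonic stem cells (ESC) of the mouse. The header of the table gives each library a karyotype and, for EGC, the day of embryonic development (E11.5 or E12.5). For ESC it labels ESC 4 to 6 as XY ESC and ESC 1 to 3 as XX ESC. For EGC it labels EGC 4 to 6 as E11.5 XY, EGC 1 to 3 as E12.5 XY, EGC 7 and EGC 9 as E11.5 XX, and EGC 8 alone as E11.5 XO. All libraries are polyadenylated RNA at passage 6 from cells grown on mouse embryonic fibroblast feeders in serum with LIF after outgrowth in 2i-LIF medium, and sorted for the surface antigen SSEA1 before extraction. The sources used here name no strain, no transgene and no treatment that differs between the groups. They do not say whether the libraries under 1 label are separate lines or clones of 1 line, so p-values measure only the spread between these libraries, and label, stage, karyotype and line cannot be told apart.

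The proteasome degrades proteins that carry ubiquitin chains. Its 20S core is a barrel of rings built from alpha subunits (Psma genes) and beta subunits (Psmb genes), and the beta subunits encoded by Psmb5, Psmb6 and Psmb7 carry the peptidase sites. The 19S particle (Psmc and Psmd genes) caps the barrel, binds ubiquitin chains and unfolds substrates with its ATPase ring. In immune cells and under interferon gamma, Psmb8, Psmb9 and Psmb10 replace the constitutive catalytic subunits Psmb5, Psmb6 and Psmb7 in that order, which gives the immunoproteasome and changes the peptides offered on MHC class I. The activators PA28 (Psme1 and Psme2), PA28 gamma (Psme3) and PA200 (Psme4) can open the barrel in place of the 19S particle.

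The windows just before the starts of 3 immunoproteasome genes and of 2 constitutive catalytic genes are shown because the levels of these genes separated the labels differently. Sequences are from RefSeq on build GRCm38.p6 and run 5′ to 3′ on the strand of the gene over the 250 bases before the start. Capitals mark matches, on either strand, to 1 of 4 motifs.
Psmb8, chr17:34197945-34198194, plus strand: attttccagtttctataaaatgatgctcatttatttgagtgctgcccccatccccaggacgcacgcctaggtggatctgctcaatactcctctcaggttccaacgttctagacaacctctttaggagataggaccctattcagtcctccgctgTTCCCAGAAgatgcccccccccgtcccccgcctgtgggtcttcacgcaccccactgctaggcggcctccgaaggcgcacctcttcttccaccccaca
Psmb9, chr17:34187331-34187580, minus strand: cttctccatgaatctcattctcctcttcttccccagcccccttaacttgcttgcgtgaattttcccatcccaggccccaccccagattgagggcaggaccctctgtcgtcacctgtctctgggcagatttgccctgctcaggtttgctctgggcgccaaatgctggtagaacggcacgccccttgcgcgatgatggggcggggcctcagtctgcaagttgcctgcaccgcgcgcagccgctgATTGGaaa
Psmb10, chr8:105938393-105938642, minus strand: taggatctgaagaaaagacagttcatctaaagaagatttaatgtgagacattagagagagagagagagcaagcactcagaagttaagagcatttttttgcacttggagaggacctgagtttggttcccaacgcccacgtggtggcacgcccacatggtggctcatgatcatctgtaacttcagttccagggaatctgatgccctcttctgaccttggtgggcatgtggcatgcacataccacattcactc
Psmb5, chr14:54617996-54618245, minus strand: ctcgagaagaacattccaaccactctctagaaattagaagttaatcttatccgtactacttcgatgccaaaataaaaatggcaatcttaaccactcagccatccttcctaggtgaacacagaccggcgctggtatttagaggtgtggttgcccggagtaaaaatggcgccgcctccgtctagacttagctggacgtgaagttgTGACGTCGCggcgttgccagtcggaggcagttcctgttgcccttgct
Psmb6, chr11:70525107-70525356, plus strand: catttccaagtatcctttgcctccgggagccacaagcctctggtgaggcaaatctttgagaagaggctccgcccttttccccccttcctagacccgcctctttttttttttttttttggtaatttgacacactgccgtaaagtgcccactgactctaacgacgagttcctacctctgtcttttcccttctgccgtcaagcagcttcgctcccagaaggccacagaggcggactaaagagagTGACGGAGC
The capitals mark the interferon gamma element GAS (TTCNNNGAA) in Psmb8, with its first base 97 bases before the RefSeq start. They mark the NF-Y box (CCAAT, here on the opposite strand) in Psmb9, 8 bases before the start. In Psmb5 and Psmb6 they mark the core of the antioxidant response element (TGACNNNGC), 47 and 9 bases before the start, and Psmb10 held no match. The 4th motif was the core of the interferon-stimulated response element, GAAANNGAA, and no match overlaps another in these 5 windows. Over the full 300-base windows, which add 50 bases after the start, 8.3% of all 32851 promoters held the GAS, 8.56% the ISRE core, 12.4% the antioxidant core and 37.4% the NF-Y box. Among the 44 promoters listed for 41 members the shares were 6.82%, 15.9%, 13.6% and 34.1%. A match is a run of letters and was not tested as a site. Psmb8 spans 34197721 to 34201454 and Psmb9 34181987 to 34187764 on chromosome 17, in the MHC region, and Psmb10 spans 105935735 to 105938444 on chromosome 8 (GRCm38, GENCODE M21). GENCODE places the outermost starts of Psmb8 and Psmb9 further upstream than RefSeq, so all 250 bases of those windows lie inside the GENCODE gene spans, as do 52 bases of the Psmb10 window and 27 of the Psmb5 window. Psmb9 overlaps Tap1, a peptide transporter gene on the other strand, by 212 bases, and Psmb8 and Psmb10 each overlap an annotated antisense gene. Whether counting used strand is not given in the sources used here, so reads from such a pair cannot be told apart. In all, 23 of the 49 members overlap another annotated gene.

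Values are TPM, transcript abundances per length scaled to sum to 1000000 in every library. No read counts were given, so depth is unknown and the spread between libraries is the only error. Between 12498 and 13041 genes reached 1 TPM. The pluripotency genes Pou5f1 (1024 to 1714 TPM) and Nanog (419 to 943 TPM) were high in every library, while Fut4, which encodes an enzyme that makes SSEA1, was at 0.078 to 0.609 TPM. The 10 pluripotent cell markers summed to 14150 to 16320 TPM in XX libraries, 8510 to 12780 TPM in XY libraries and 13160 TPM in the XO library, and the 6 germ cell markers to 129 to 266 TPM. Of the feeder markers, Fn1, Vim and Sparc were high in all libraries, and the other 13 summed to 14.7 to 19.7 TPM in ESC and 20.2 to 78.2 TPM in EGC, with EGC 4 highest. The 10 blood and immune markers summed to 109 to 152 TPM, nearly all of it Laptm5 and Cd68, and the leukocyte gene Ptprc was at 0.0153 TPM or less. In 2 libraries a whole chromosome stood apart. EGC 8, the XO library, had a chromosome 12 score (median log2 deviation of its expressed genes from the autosomal median) of 0.398, against -0.085 to 0.019 elsewhere. ESC 3 had a chromosome 13 score of 0.479, against -0.103 to 0.044 elsewhere. The next highest score of an autosome was 0.108 for chromosome 8 in EGC 4, against -0.045 to 0.048 elsewhere, and in that library Psmb10 and Psmd7, which lie on it, were the highest of their label. These scores touch the members on those chromosomes. Psma3, Psma6 and Psmc1 were 1.51 to 1.72 times the mean of the other EGC in EGC 8, where the other 45 measured members had a median ratio of 1.05. Psma2 and Psmg4 were 1.54 to 1.61 times the mean of ESC 1 and ESC 2 in ESC 3, where the median of the other 46 was 1.05.

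As levels, the 31 constitutive genes of the 20S core and the 19S particle lay close together. Their means over the 15 libraries ran from 107 TPM (Psmc2, an ATPase of the 19S base) to 367 TPM (Psma7, an alpha ring subunit), on a scale that is per transcript length. The highest library was 1.25 (Psmd8) to 2.25 (Psma2) times the lowest, with a median of 1.58, and the value of Psma2 rests on ESC 3. The members that varied most on the log2 scale were Psmb8, Psma8, Psmd10 and Psmb10. The 48 proteasome genes together took 0.639% to 0.873% of all TPM. The sum was 0.719% to 0.746% in XY ESC, 0.794% to 0.850% in XX ESC, 0.639% to 0.691% in E11.5 XY EGC, 0.677% to 0.760% in E12.5 XY EGC and 0.868% to 0.873% in E11.5 XX EGC. Both XX labels lay above all XY libraries, with no overlap. The pluripotent marker sums above separated XX from XY libraries in the same direction. Dppa5a made up most of these sums, with 6130 to 6656 TPM in XY ESC and 10700 to 11400 TPM in XX ESC. In XX against XY ESC 6 of 9 of these markers tested were higher and 1 lower, where 27.3% and 19.3% of all genes were. In XX against XY E11.5 EGC 3 were higher and 1 lower, where 26.2% and 23.4% of all genes were. The part of these markers in the result was not tested. The XO library had 0.830%, but its value over the 43 genes off chromosomes 12 and 13 was 0.664%, between the 0.538% to 0.648% of XY libraries and the 0.674% to 0.725% of XX libraries. Since TPM is a share, a higher share and more RNA per cell cannot be told apart.

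**Figure D1:**
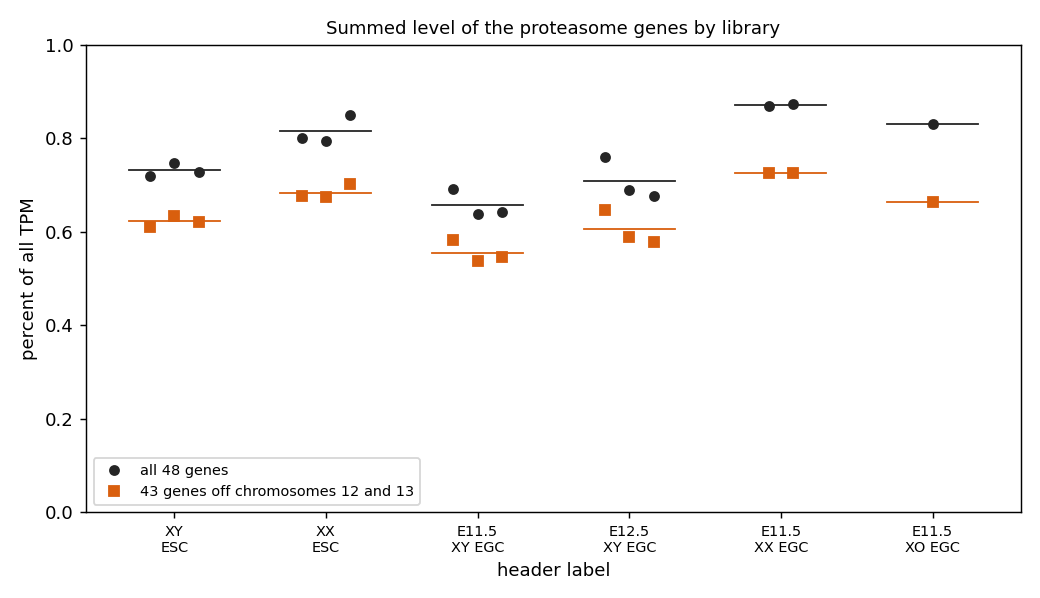
Summed TPM of the 48 proteasome genes (black) and of the 43 off chromosomes 12 and 13 (orange), as percent of all TPM, by header label; points are libraries and lines are means. The 5 XX libraries sit at 0.794% or above and the 9 XY libraries at 0.760% or below, and the XO library falls to 0.664% once the chromosome 12 and 13 genes are left out.

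By role, the 7 alpha ring genes, which gate the barrel, summed to 1938 to 2064 TPM in XY ESC, 2192 to 2495 in XX ESC, 1778 to 1937 in E11.5 XY EGC, 1788 to 1965 in E12.5 XY EGC and 2508 to 2595 in XX EGC. The 4 beta ring genes without a peptidase site ran from 932 TPM (EGC 5) to 1421 TPM (EGC 7). The 6 ATPase genes of the 19S base moved less, from 844 TPM (EGC 5) to 1004 TPM (EGC 1) outside the XO library, which had 1159 TPM. Psmc1, on chromosome 12, was highest in the XO library, and so were Psmc3, Psmc4 and Psmc5, which lie on other chromosomes. The 11 other 19S genes summed to 1609 to 1666 TPM in XY ESC and 1884 to 1922 TPM in XX ESC. Psmb11, the thymus catalytic subunit, was at 0.0206 TPM or less in every library and was not tested, so 48 of 49 members passed the filter of 1 TPM in at least 2 libraries.

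**Figure D2:**
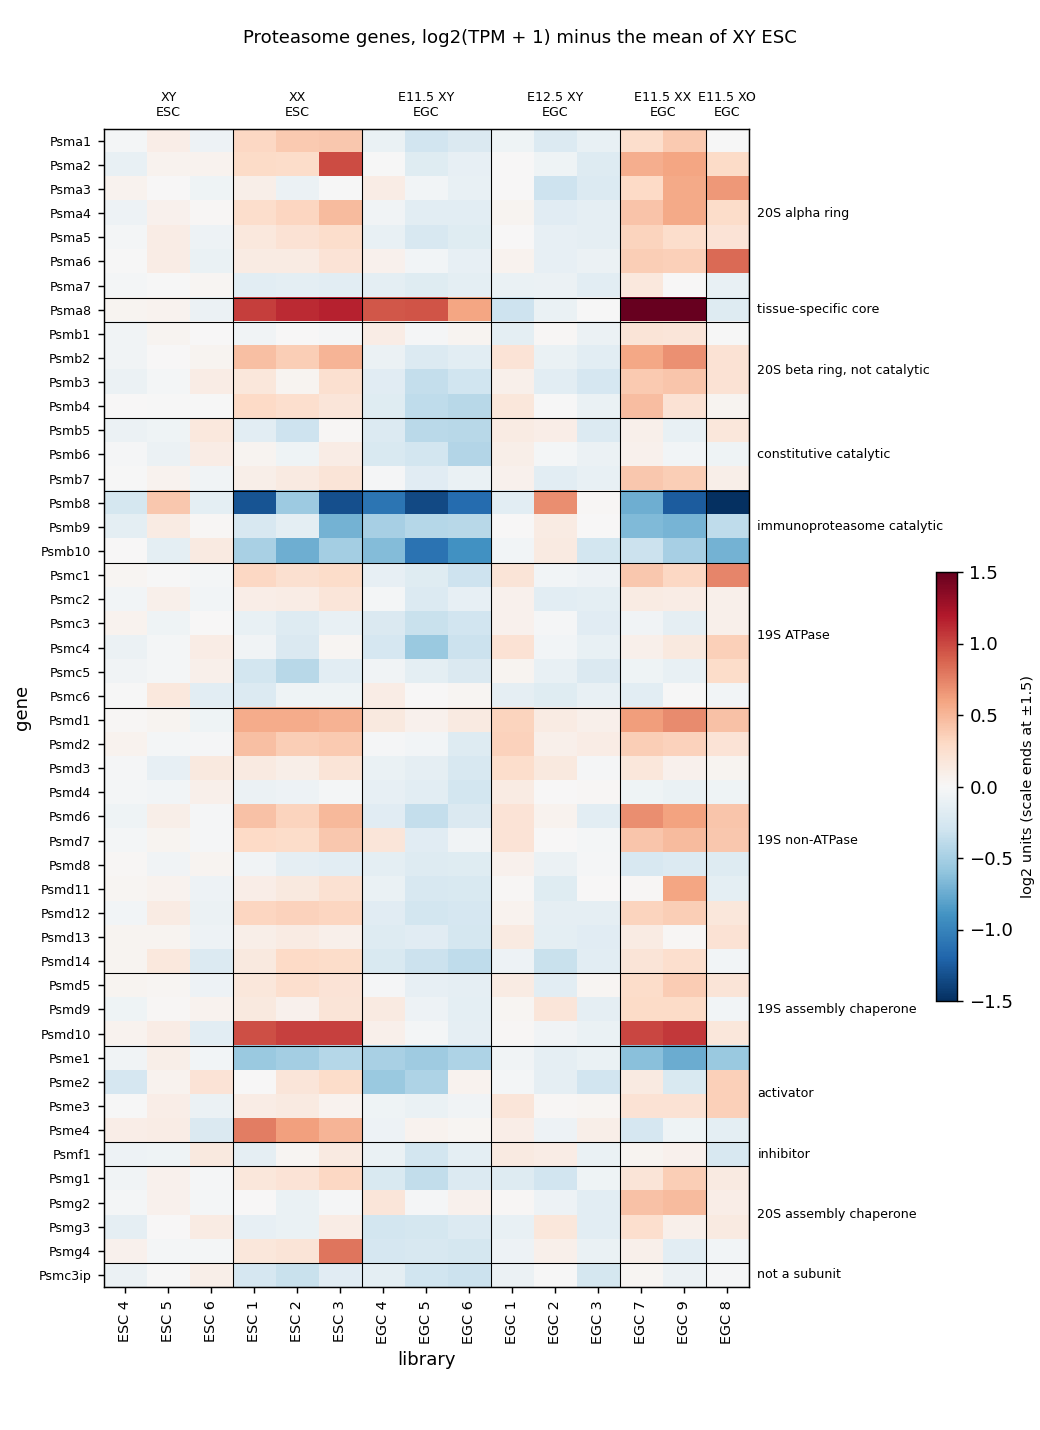
Level of each tested member in each library as log2(TPM + 1) minus the mean of the 3 XY ESC libraries, with genes ordered by role and libraries by header label; red is higher and blue is lower. Psmb8, Psmb9, Psmb10 and Psme1 are blue in XX ESC, E11.5 XY EGC, XX EGC and the XO library, while most alpha ring and 19S non-ATPase genes are red in both XX labels. The highest values of Psma2 and Psmg4 are in ESC 3, and those of Psma3, Psma6 and Psmc1 are in EGC 8.

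The immunoproteasome genes were transcribed at a small fraction of their constitutive partners. Psmb8, the immunoproteasome counterpart of Psmb5, had 3.12, 5.53 and 3.46 TPM in XY ESC (ESC 4, 5 and 6) and 1.01, 2.38 and 0.979 TPM in XX ESC (ESC 1, 2 and 3). In EGC it had 1.31, 0.937 and 1.22 TPM at E11.5 in XY (EGC 4, 5 and 6), 3.43, 7 and 3.99 TPM at E12.5 in XY (EGC 1, 2 and 3), 1.96 and 1.07 TPM in XX (EGC 7 and 9) and 0.718 TPM in the XO library. XY ESC and E12.5 XY EGC were high, and their lowest library lay above the highest of all other labels.

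Psmb9, the counterpart of Psmb6, had 2.92, 3.71 and 3.39 TPM in XY ESC and 2.68, 2.90 and 1.65 TPM in XX ESC. It had 2.07, 2.22 and 2.25 TPM in E11.5 XY EGC, 3.34, 3.71 and 3.33 TPM in E12.5 XY EGC, 1.73 and 1.66 TPM in XX EGC and 2.32 TPM in the XO library. The order of the labels was the one seen for Psmb8 at the top, with ESC 2 and ESC 4 nearly touching. Psmb10, the counterpart of Psmb7, had 9.36, 8.29 and 10.3 TPM in XY ESC and 6.37, 5.21 and 6.25 TPM in XX ESC. It had 5.55, 3.77 and 4.50 TPM in E11.5 XY EGC, 8.97, 10.3 and 7.52 TPM in E12.5 XY EGC, 7.27 and 6.29 TPM in XX EGC and 5.32 TPM in the XO library. Here E11.5 XY EGC had the lowest values but overlapped XX ESC, and XX EGC lay between it and E12.5 XY EGC with no overlap on either side.

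The constitutive catalytic genes did not share this order. Psmb5, which encodes the chymotrypsin-like site, had 178, 182 and 212 TPM in XY ESC, 170.4, 153 and 193 TPM in XX ESC, 165, 143 and 143 TPM in E11.5 XY EGC, 206, 204 and 164 TPM in E12.5 XY EGC, 200.5 and 176 TPM in XX EGC and 214.5 TPM in the XO library. Its labels overlapped, apart from E11.5 XY EGC, whose values lay below both XX EGC libraries and all XY ESC libraries. Psmb6, the caspase-like site, had 286, 273 and 312.5 TPM in XY ESC, 298, 276 and 312 TPM in XX ESC, 247, 239 and 213 TPM in E11.5 XY EGC, 307, 285 and 272 TPM in E12.5 XY EGC, 302 and 282 TPM in XX EGC and 277 TPM in the XO library. E11.5 XY EGC was again the low label. Psmb7, the trypsin-like site, had 301, 313 and 292 TPM in XY ESC, 321, 332 and 345 TPM in XX ESC, 299, 268.5 and 280.5 TPM in E11.5 XY EGC, 316, 269.6 and 279 TPM in E12.5 XY EGC, 400.1 and 391.5 TPM in XX EGC and 320.2 TPM in the XO library. For Psmb7 the XX EGC libraries stood above all others.

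Summed, the 3 immunoproteasome genes had 6.92 to 21.04 TPM against 637 to 903 TPM for the 3 constitutive genes. As a share of the 6 catalytic genes they made up 2.09% ± 0.134 in XY ESC (SD, n = 3), 1.22% ± 0.166 in XX ESC (n = 3), 1.18% ± 0.107 in E11.5 XY EGC (n = 3), 2.20% ± 0.442 in E12.5 XY EGC (n = 3) and 1.13% ± 0.104 in XX EGC (n = 2). The XO library had 1.02%. XY ESC and E12.5 XY EGC overlapped each other and lay above the rest. XX ESC, E11.5 XY EGC and XX EGC overlapped each other, and the XO library lay just below their lowest value of 1.03%. Feeder markers moved with the labels in several ways. The sum of all 16 was 648 to 722 TPM in E12.5 XY EGC, 552 to 589 TPM in XY ESC, 586 to 634 TPM in XX ESC and 558 to 589 TPM in E11.5 XY and XX EGC. Nearly all of that sum was Fn1, Vim and Sparc. Fn1 (299 to 310 and 236 to 259 TPM) and Pdgfrb (2.59 to 3.03 and 2.11 to 2.39 TPM) had their highest values in E12.5 XY EGC and XY ESC, with XX ESC touching the latter. Not all markers shared that order. S100a4 was lowest in those labels (0.431 to 0.877 TPM) and highest in XX EGC (5.07 and 5.11 TPM). Sparc was highest in the XX libraries (276 to 299.5 TPM, others 204.4 to 272.8 TPM). The 13 markers without Fn1, Vim and Sparc were highest in EGC 4, at 78.2 TPM, where the immunoproteasome sum was 8.92 TPM. The part of feeder RNA in these values was not tested.

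**Figure D3:**
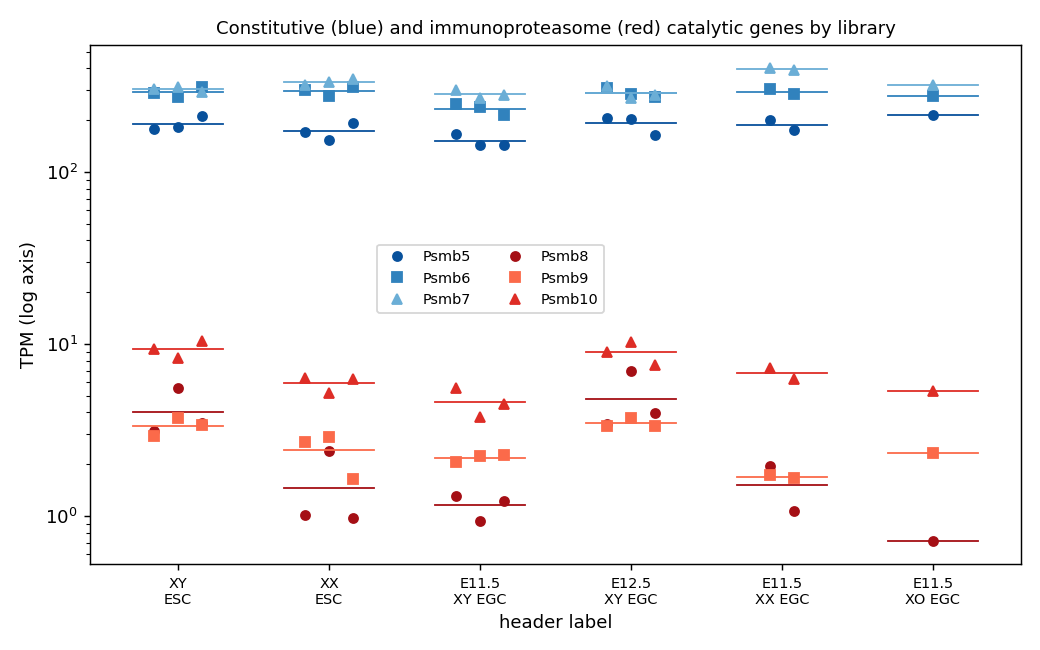
TPM of the 6 catalytic genes on a log axis by header label; points are libraries and short lines are means. The constitutive genes (blue) lie between 143 and 400.1 TPM and the immunoproteasome genes (red) between 0.718 and 10.3 TPM, with the red points of XY ESC and E12.5 XY EGC above those of the other labels gene by gene.

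XX and XY cells were compared first in ESC, where the immunoproteasome genes fell and the other proteasome roles rose, were mixed or had no call. By limma over 13879 genes (2-sided, Benjamini-Hochberg adjusted p under 0.05), 19 of 48 members were higher in XX and 7 were lower, where 27.3% of all genes were higher and 19.3% lower. The median log2 fold change was 0.14 over the members and 0.05 over all genes. With median-ratio scaling the counts were 13 higher and 9 lower, where 24.2% and 23.7% of all genes were, so the members lay near the background. With quantile scaling they were 14 and 10, where 22.1% and 26.1% of all genes were called. Without the members on chromosome 13 they were 17 and 7. Without ESC 6 the counts were 13 and 4. Without ESC 3, Psma5, Psmb9, Psmd14, Psmd5, Psmg1 and Psmg4 did not pass.

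All 3 immunoproteasome genes fell in XX ESC, Psmb8 by -1.05 ± 0.26 log2 units (SE, adjusted p = 0.00496), Psmb10 by -0.57 ± 0.14 (adjusted p = 0.00386) and Psmb9 by -0.37 ± 0.13 (adjusted p = 0.0361). Psmb9 was not called without ESC 3 (-0.19, adjusted p = 0.138), ESC 5 or ESC 6, or with no filter on low values. Log2 differences of TPM + 1 understate changes at these levels. None of the 3 constitutive catalytic genes passed, at -0.15 ± 0.11 for Psmb5, 0.03 ± 0.08 for Psmb6 and 0.14 ± 0.07 for Psmb7. Of the 7 alpha ring genes 4 rose and Psma7 fell, by -0.15 ± 0.05 (lost without ESC 1 or ESC 6). Psma2 rose by 0.52 ± 0.14, with ESC 3 at 557 TPM and the other XX ESC libraries at 347 and 343 TPM against 263 to 294 TPM in XY ESC. Psma1, which had 361 to 384 TPM in XX and 276 to 312 TPM in XY, rose by 0.37 ± 0.07. Of the 11 other 19S genes 6 rose and none fell, led by the scaffold gene Psmd1 (175 to 179 against 116 to 125 TPM, 0.55 ± 0.07, adjusted p = 2.12e-05). Of the 6 ATPase genes, Psmc1 rose by 0.27 ± 0.07 and Psmc5 fell by -0.28 ± 0.08, a call lost without ESC 2.

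In the same comparison in E11.5 EGC most ring and 19S genes were higher in XX. Here 34 of 48 members were higher in XX and 1 was lower, where 26.2% of all genes were higher and 23.4% lower. The median was 0.41 over the members and 0.03 over all genes, and quantile scaling gave 30 higher and 4 lower, where 24.1% and 26% of all genes were called. The XX group has 2 libraries, and each time 1 of them was left out the lone sample was assumed to vary like the others. The total number called was then 26 without EGC 7 and 29 without EGC 9.

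All 7 alpha ring genes rose, by 0.24 (Psma7) to 0.67 (Psma2) log2 units, but Psma7 did not pass without EGC 7 (adjusted p = 0.0778) nor Psma3 without EGC 9 (adjusted p = 0.0574). All 3 constitutive catalytic genes rose, Psmb7 by 0.49 ± 0.07 (adjusted p = 0.000152), Psmb6 by 0.33 ± 0.09 and Psmb5 by 0.32 ± 0.12 (adjusted p = 0.0444). The Psmb5 call was lost when any of EGC 5, EGC 6, EGC 7 and EGC 9 was left out, with no filter on low values, and under both other scalings (adjusted p = 0.072 with median-ratio, 0.115 with quantile), and Psmb6 was lost without EGC 7. Psmb2, Psmb3 and Psmb4, beta subunits without a peptidase site, rose by 0.78 ± 0.09, 0.68 ± 0.10 and 0.67 ± 0.09. Psmb2 had 269 and 289 TPM in XX and 156 to 168.5 TPM in XY. Of the 11 other 19S genes 9 rose, led by Psmd6 (157 and 147 against 74.9 to 85.7 TPM, 0.90 ± 0.10, adjusted p = 1.09e-05), and 3 of the 6 ATPase genes rose. Of the 4 chaperones that assemble the 20S core (Psmg genes) 3 rose. Among the immunoproteasome genes Psmb10 rose, with a log2 difference of 0.48 ± 0.15 and an adjusted p of 0.0183. Without EGC 5 or EGC 7 it did not pass (adjusted p = 0.0706 and 0.141). Psmb8 (0.20 ± 0.29) and Psmb9 (-0.24 ± 0.15) did not pass. The 1 member that fell was Psme1, by -0.18 ± 0.07, a call lost without EGC 4, EGC 6 or EGC 9.

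**Figure D4:**
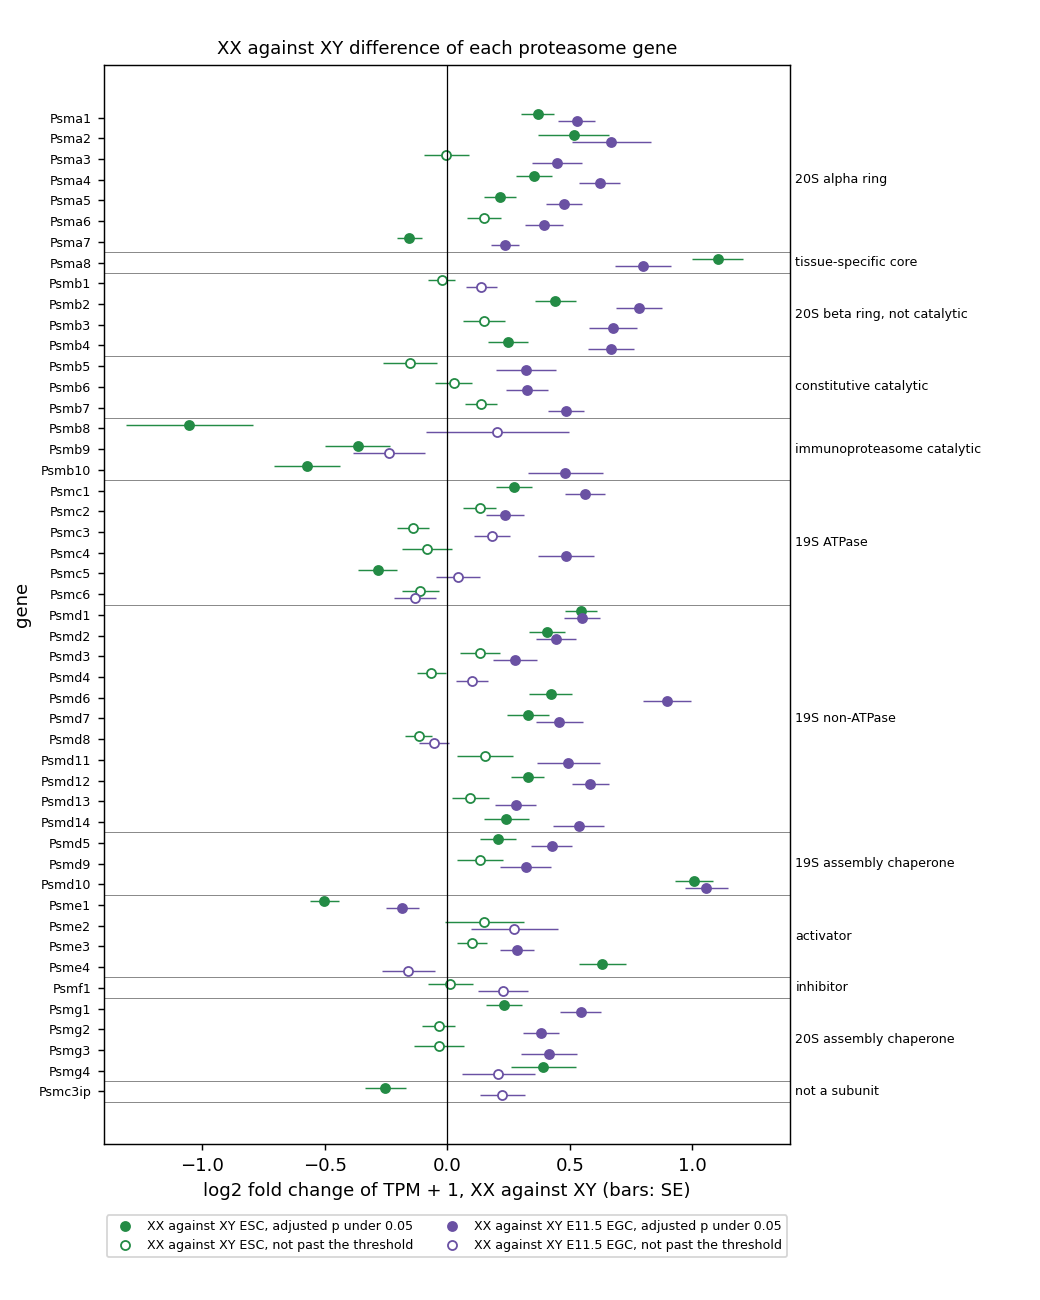
Log2 fold change of TPM + 1 in XX against XY for each tested member, in ESC (green) and in E11.5 EGC (purple), with bars for the SE; filled points passed an adjusted p under 0.05. Of the 48 members 19 are filled to the right in ESC and 34 in EGC, and Psmb8 and Psmb10 lie at -1.05 and -0.57 in ESC but at 0.20 and 0.48 in EGC.

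The difference between both XX effects was tested in the same model. It was positive (more positive in EGC) for 13 of 48 members and negative for 1, where 6.08% of all genes were positive and 9.51% negative, with a median of 0.26 over the members and -0.04 over all genes. The largest were Psmb8 (1.26 ± 0.39, adjusted p = 0.0453) and Psmb10 (1.05 ± 0.20, adjusted p = 0.00711). By its definition the difference is E11.5 EGC against ESC in XX cells minus the same in XY cells. In XY cells Psmb8 and Psmb10 changed by -1.20 and -0.89, and in XX cells by 0.058 and 0.165. Psmb10 kept its call with each library left out, while Psmb8 lost it in 9 of those fits and with no filter on low values. Psmc4, an ATPase of the 19S base, followed with 0.57 ± 0.15, then Psmb3 with 0.53 ± 0.13. The negative one was Psme4 (-0.79 ± 0.15, adjusted p = 0.00557). The total called was 5 without EGC 5 or EGC 7, 6 without EGC 9 or ESC 2, 7 without ESC 1 or ESC 6, 8 without ESC 5, 9 without EGC 6 and 8 with no filter on low values, so the number depends on single libraries.

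Between the XY EGC stages, 15 of 48 members were higher at E12.5 and 1 was lower, where 26.3% of all genes were higher and 11.4% lower. The median was 0.14 over the members and 0.10 over all genes, and with median-ratio scaling the counts were 6 and 5, where 17.6% of all genes were higher and 19.5% lower. Without EGC 1, the highest E12.5 library for most roles, 10 members were called. Of 13 feeder markers tested, 2 were higher and 4 lower at E12.5. The mitochondrial share of TPM was 4.99% to 5.61% in E12.5 XY EGC and 6.7% to 7.85% in E11.5 XY EGC, without overlap. The part of either in the result was not tested.

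The immunoproteasome genes had the largest rises, Psmb8 with 1.39 ± 0.26 (adjusted p = 0.00146), Psmb10 with 0.83 ± 0.14 (adjusted p = 0.000647) and Psmb9 with 0.49 ± 0.13 (adjusted p = 0.0113). These 3 calls held with each library left out. Psme1, the PA28 alpha subunit, rose by 0.40 ± 0.06 and Psmc4 by 0.40 ± 0.10. Of the constitutive catalytic genes Psmb5 rose by 0.34 ± 0.11 and Psmb6 by 0.31 ± 0.08, and neither passed with median-ratio scaling (adjusted p = 0.134 and 0.0757). Psmb5 also did not pass without EGC 1, EGC 2, EGC 5 or EGC 6 (adjusted p up to 0.101). None of the 7 alpha ring genes passed by limma, and none had an unadjusted p under 0.05. Psma8 was the member that fell, by -0.96 ± 0.10 (adjusted p = 5.39e-05).

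EGC were compared with ESC within each karyotype. E11.5 XY EGC against XY ESC gave 1 of 48 members higher and 18 lower, where 12.2% of all genes were higher and 13.4% lower, with a median of -0.18 over the members and -0.01 over all genes. Of 13 feeder markers tested, 7 were higher and 2 lower in E11.5 XY EGC (median log2 fold change 0.94). The mitochondrial share of TPM was 6.7% to 7.85% in E11.5 XY EGC and 4.94% to 5.49% in XY ESC, without overlap. The part of either in the result was not tested. Psmb8 fell by -1.20 ± 0.26 (adjusted p = 0.00581), Psmb10 by -0.89 ± 0.14 (adjusted p = 0.000753) and Psmb9 by -0.45 ± 0.13 (adjusted p = 0.0259). Psme1 fell by -0.50 ± 0.06, Psmc4 by -0.38 ± 0.10, Psmb5 by -0.34 ± 0.11 and Psmb6 by -0.32 ± 0.08, and Psma8 rose by 0.82 ± 0.10. The number called was 6 without EGC 5, 9 without EGC 6, 10 without ESC 5 and 11 without ESC 6. Psmb9 was lost without any of ESC 5, ESC 6, EGC 4, EGC 5 and EGC 6, and Psmb5 was lost without any of 5 libraries, whereas Psmb8, Psmb10 and Psme1 passed in all of these fits. E11.5 XY EGC is the reference in the stage comparison and in the XX comparison as well, and it enters the difference of the XX effects. Its low values therefore enter all of these.

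At E12.5 none of 48 members passed by limma between XY EGC and XY ESC in either direction. Of all genes 3.19% were higher and 0.166% lower. At an unadjusted p under 0.05 there were 4 members (Psma7, Psmd1, Psmd2 and Psmg1), which is 8.33% of them against 21.9% of all genes. The median was -0.05 over the members and 0.08 over all genes. The differences were 0.19 ± 0.26 for Psmb8, 0.04 ± 0.13 for Psmb9 and -0.06 ± 0.14 for Psmb10. Median-ratio and quantile scaling also gave 0. In XX cells, EGC against ESC gave 6 higher and 1 lower of 48, where 4.09% of all genes were higher and 8.44% lower, with medians of 0.09 and -0.05. The higher ones included the 20S assembly chaperone gene Psmg2 (89.7 and 91.6 against 61.4 to 65.9 TPM, 0.49 ± 0.075), Psma3 (0.44 ± 0.10) and Psmb7 (0.25 ± 0.07), and Psme4 was the lower one. The largest rise was that of Psma8 (0.518, adjusted p = 0.0136 by limma), a call lost without EGC 7 or EGC 9. Psma3 was lost without ESC 2 or EGC 9, and Psmb7 without ESC 1, ESC 2, EGC 7 or EGC 9. The number called was 3 without EGC 9 and 4 without EGC 7, ESC 1 or ESC 2 and with quantile scaling. Of 13 feeder markers tested in XX EGC against XX ESC, 5 were higher and 1 lower (median log2 fold change 0.74). Their part in the result was not tested. Over all 9 EGC against all 6 ESC libraries none of 48 members passed by limma in either direction. Of the 12909 genes tested 0.0232% were higher and 0.0232% lower. That fit left out header label, and karyotype was not balanced (2 XX and 1 XO library in EGC, 3 XX in ESC). Differences between labels therefore added to its spread. At an unadjusted p under 0.05 there were 3 members, or 6.25%, against 9.02% of all genes. Median-ratio and quantile scaling also gave 0 there.

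Among the activators, Psme1 had the same high labels as the immunoproteasome genes, and Psme2, its partner in PA28, was not called. Psme1 had 116, 129 and 118 TPM in XY ESC, 81.6, 84.1 and 89.3 TPM in XX ESC, 85.7, 82.8 and 87.1 TPM in E11.5 XY EGC, 116.5, 109.9 and 113 TPM in E12.5 XY EGC, 78.0 and 71.9 TPM in XX EGC and 82.0 TPM in the XO library. XY ESC and E12.5 XY EGC were again the high labels, with no overlap with the rest. In ESC it fell in XX by -0.50 ± 0.06 (adjusted p = 2.00e-05). Psme2 had 73.5, 91.1 and 101 TPM in XY ESC, 87.9, 99.6 and 106 TPM in XX ESC, 59.3, 63.6 and 91.4 TPM in E11.5 XY EGC, 85.9, 79.8 and 71.7 TPM in E12.5 XY EGC, 96.8 and 74.7 TPM in XX EGC and 113 TPM in the XO library. The labels overlapped apart from the XO library, which was highest, and Psme2 passed in no comparison over all libraries. Without EGC 6, the highest of its label, it passed in E11.5 XY EGC against XY ESC (adjusted p = 0.0278), where E11.5 XY EGC was lower, and in XX against XY E11.5 EGC (adjusted p = 0.0287), where XX was higher.

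Psme3 had 107 to 122 TPM in XY ESC, 118 to 125 TPM in XX ESC, 107 to 109 TPM in E11.5 XY EGC, 116 to 129 TPM in E12.5 XY EGC, 132 and 132 TPM in XX EGC and 146 TPM in the XO library. It rose in XX against XY EGC by 0.28 ± 0.07. Psme4, an activator that opens the barrel without ATP and is prominent in the testis, had 174, 156 and 146 TPM in XX ESC. In all other libraries it lay between 85.4 (EGC 7) and 110 TPM (ESC 5), so XX ESC was the only high label. It was higher in XX than in XY ESC by 0.63 ± 0.10 (adjusted p = 0.000154) and lower in XX EGC than in XX ESC by -0.79 ± 0.11 (adjusted p = 0.00147). Psmf1, an inhibitor of the proteasome, lay at 25.04 to 33.9 TPM and passed in no comparison.

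Psma8, an alpha subunit that takes the place of Psma7 in germ cells of the testis, was measured in every library. It had 13.2, 13.3 and 11.98 TPM in XY ESC, 27.3, 29 and 29.8 TPM in XX ESC, 25.4, 25.6 and 19.7 TPM in E11.5 XY EGC, 10.1, 11.9 and 12.8 TPM in E12.5 XY EGC, 41.4 and 41.6 TPM in XX EGC and 11.1 TPM in the XO library. XX EGC was highest without overlap, XX ESC came next, and XY ESC, E12.5 XY EGC and the XO library shared the low end. It made up 2.73% to 3.56% of the sum of Psma8 and Psma7 in the low XY labels, 5.34% to 6.94% in E11.5 XY EGC, 7.27% to 7.91% in XX ESC and 8.75% to 9.65% in XX EGC. It rose in XX ESC by 1.103 ± 0.10 (adjusted p = 2.12e-06) and in XX EGC by 0.80 ± 0.11 (adjusted p = 9.82e-05). The difference between these effects was -0.30 ± 0.15 and did not pass (adjusted p = 0.187). The germ cell marker Ddx4 had 24.8 to 42.1 TPM in the XX libraries and 34.3 to 52.7 TPM in the XY libraries, and Dazl had 46.1 to 93.9 and 15.5 to 30.7 TPM.

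Psmd10 (gankyrin), a chaperone that assembles the 19S base, is the X-linked member (chromosome X, 140948429 to 140956728). It had 26.04, 27.1 and 22.4 TPM in XY ESC, 49.98, 52.1 and 52.0 TPM in XX ESC, 26.6, 24.5 and 22.8 TPM in E11.5 XY EGC, 25.3, 24.1 and 23.3 TPM in E12.5 XY EGC, 51.1 and 53.5 TPM in XX EGC and 28.4 TPM in the XO library. The 5 XX libraries lay far above all others, with little spread within a label. The rise in XX was 1.01 ± 0.08 in ESC (adjusted p = 4.41e-07) and 1.06 ± 0.09 in EGC (adjusted p = 1.15e-06), and the difference of 0.05 ± 0.12 did not pass. Chromosome X as a whole separated the libraries in the same way. Its score over 446 genes, formed as for the autosomes above, was 0.526 to 0.651 in XX libraries and -0.378 to -0.238 in the others. Psmc3ip, the recombination factor, lay at 29.1 to 39.4 TPM and fell in XX ESC by -0.25 ± 0.08, a call lost without ESC 1, ESC 2 or ESC 6.

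**Figure D5:**
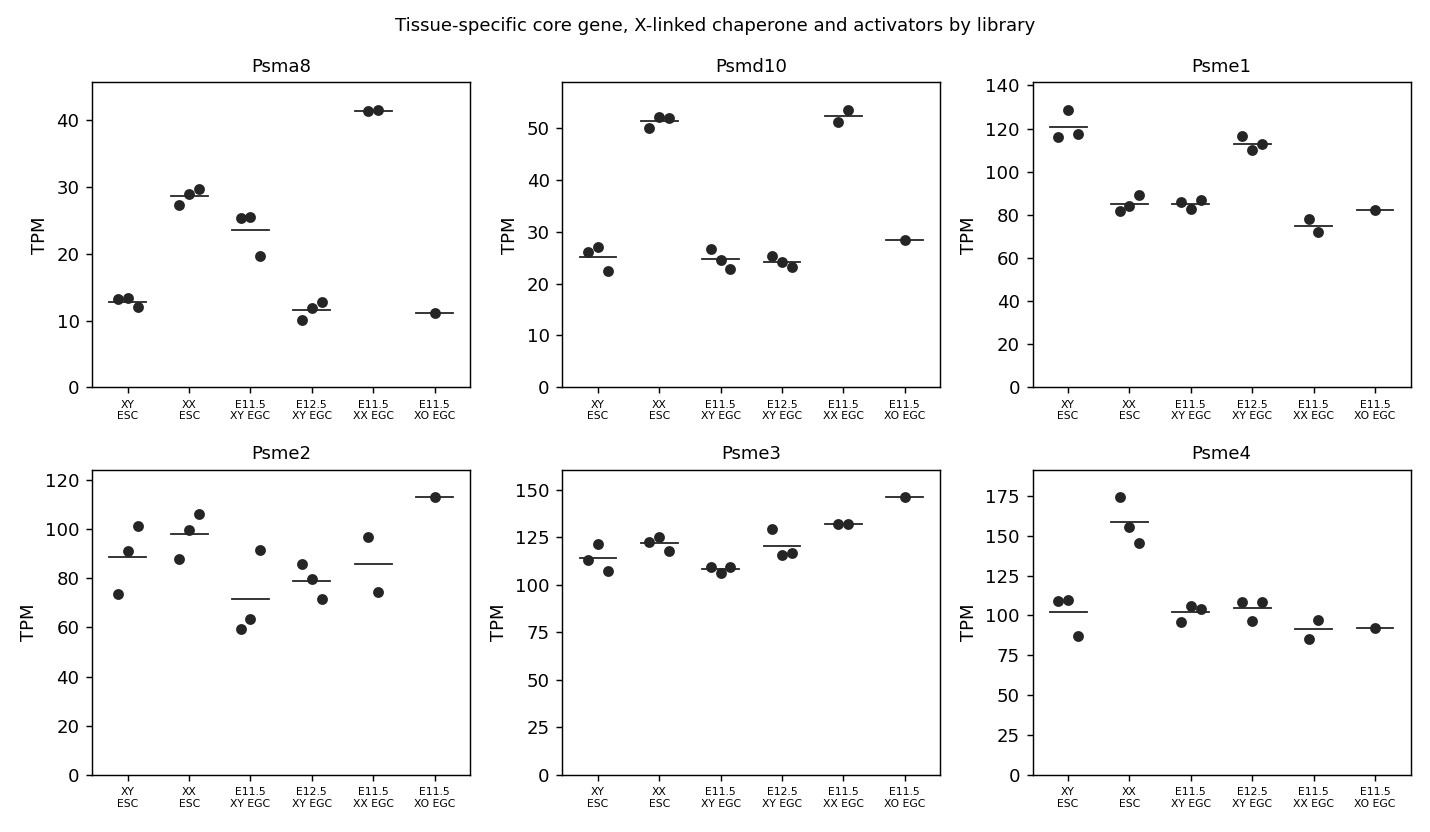
TPM by header label of Psma8, Psmd10 and the 4 activator genes; points are libraries, lines are means and each axis starts at 0. Psmd10 is high in both XX labels only (49.98 to 53.5 TPM), Psma8 is also raised in E11.5 XY EGC (19.7 to 25.6 TPM), Psme1 is high in XY ESC and E12.5 XY EGC (109.9 to 129 TPM) and Psme4 is high in XX ESC only (146 to 174 TPM).

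Of 20 genes of antigen processing and the interferon response, 19 were tested in the label model. In XX against XY ESC 5 were higher and 5 lower, in XX against XY E11.5 EGC 7 and 3, at E12.5 against E11.5 in XY EGC 9 and 1, in E11.5 XY EGC against XY ESC 1 and 3, in E12.5 XY EGC against XY ESC 0 and 0, and in XX EGC against XX ESC 0 and 1. For the difference of the XX effects the counts were 1 and 2, and in EGC against ESC 0 and 0 of 18. Of all genes, 27.3% were higher and 19.3% lower in XX against XY ESC. The shares were 26.2% and 23.4% in XX against XY E11.5 EGC, and 26.3% and 11.4% between the stages. They were 12.2% and 13.4% in E11.5 XY EGC against XY ESC, and 4.09% and 8.44% in XX EGC against XX ESC. For the difference they were 6.08% and 9.51%. The median log2 fold change of the list was -0.05 in XX against XY ESC and 0.33 between the stages, where all genes had 0.05 and 0.10. Gbp2, an interferon-induced GTPase, had 14.4 to 20.9 TPM in XY ESC, 4.52 to 8.02 TPM in XX ESC, 3.36 to 6.70 TPM in E11.5 XY EGC, 16.4 to 21.7 TPM in E12.5 XY EGC, 3.98 and 2.01 TPM in XX EGC and 1.21 TPM in the XO library. It fell in XX ESC by -1.31 ± 0.25 and rose between the stages by 1.84 ± 0.25, with the high labels those of Psmb8. Isg15, a ubiquitin-like protein, was at 0.593 to 1.13 TPM in XY ESC, 0.961 to 1.66 TPM in E12.5 XY EGC and 0.130 to 0.363 TPM in the rest.

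Other genes of that list did not share the order, or shared it only in part. Irf1, a transcription factor of the interferon gamma response, was higher in XX ESC (43.4 to 44.5 against 26.5 to 30.3 TPM, 0.60 ± 0.09) and the class I gene H2-D1 was too (10.3 to 14 against 4.07 to 5.91 TPM, 1.05 ± 0.17). Ube2l6, an ISG15-conjugating enzyme, had 23.8 to 34.2 TPM in XX ESC and 0.481 to 0.973 TPM in XY ESC (4.15 ± 0.15). The class I light chain B2m was highest in E11.5 XY EGC, at 61.4 to 94.2 TPM against 35.5 to 52.6 TPM at E12.5, and fell between the stages by -0.85 ± 0.17. Tap1, the neighbour of Psmb9, shared it in part. It fell in XX ESC by -0.63 ± 0.16 and rose between the stages by 0.45 ± 0.16. Its E11.5 XY EGC values (5.58 to 7.49 TPM) overlapped those of XY ESC (6.46 to 7.71 TPM).

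Of 29 genes that work with the proteasome (ubiquitin genes, shuttles, assembly and transcription factors), 28 were in the table and all were tested. In XX against XY ESC 13 were higher and 2 lower, in XX against XY E11.5 EGC 6 and 4, between the XY EGC stages 7 and 5, in E11.5 XY EGC against XY ESC 1 and 2, and in XX EGC against XX ESC 1 and 3. The difference of the XX effects gave 0 and 3, and the other comparisons 0 and 0. Among all genes, 27.3% were higher and 19.3% lower in XX against XY ESC. The shares were 26.2% and 23.4% in XX against XY E11.5 EGC, and 26.3% and 11.4% between the stages. Other shares of all genes are given above with the antigen processing list. The 2 smallest p in both XX comparisons belonged to X-linked genes, and the chromosome X scores are given above with Psmd10. Ubqln2, a ubiquitin shuttle, had 59.5 to 75.2 TPM in the 5 XX libraries and 24.7 to 32.6 TPM in the others, and rose by 1.24 ± 0.10 in ESC and 1.43 ± 0.12 in EGC. Uba1, the main ubiquitin-activating enzyme, had 348 to 385 TPM in the XX libraries and 209.8 to 248 TPM in the others, and rose by 0.71 ± 0.06 and 0.74 ± 0.07. The proteasome adaptor gene AI314180 (Ecpas) had 38.3 to 43.6 TPM in XX ESC and 22.0 to 26.1 TPM in XY ESC, and rose by 0.77 ± 0.09. Pomp, the maturation factor of the 20S core, had 377 and 344 TPM in XX EGC and 297 to 307 TPM in E11.5 XY EGC, and rose by 0.25 ± 0.06. Nfe2l1, the transcription factor that restores proteasome genes after inhibition, passed in neither XX comparison, and rose between the XY EGC stages by 0.33 ± 0.10. Nfe2l2, the factor that binds the antioxidant element, had 60.7 to 77.5 TPM in XX ESC and 84.5 to 96.6 TPM in XY ESC (-0.39 ± 0.08) and fell in XX EGC by -0.55 ± 0.09.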

How the data were processed

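Gene expression was measured by RNA sequencing in 9 EGC and 6 ESC libraries. Per the labels' protocols, a TruSeq kit was used and both ends were read. Per the submitters' processing notes, STAR 2.3.0, HTSeq 0.6.0, edgeR 3.8.6, Picard 1.100, SAMtools 0.1.18.0 and the build GRCm38 (mm10) were used, with roles not given in the sources used here. The authors deposited a table of TPM values, and its header gives karyotype and stage; a blank header cell was read as the label at its left. The header labels are not in the sample labels. The members and lists were chosen with earlier results of these data known.

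The analysis here took log2(TPM + 1) into limma 3.58.1 (R 4.3.3). Its moderated test was 2-sided and let variance follow mean level. P-values were adjusted by Benjamini-Hochberg over all genes, with a threshold of 0.05. The model had a mean per header label and covered the 13879 genes that reached 1 TPM in 2 or more libraries. EGC against ESC had a mean per cell type instead and covered the 12909 genes that reached 1 TPM in 6 or more. The script was tested on simulated data. Catalytic, activator, tissue-specific and X-linked members were named in full, and other members when called and among the 5 largest changes in a direction, with up to 4 genes of smallest p per list; other genes given were chosen after their values were seen. Alternatives were a pseudocount of 0.1, no filter, median-ratio and quantile scaling, correlated libraries within a label and each library left out. Leaving out members by chromosome, or Psmc3ip, was added after seeing the data. Promoters came from RefSeq (GRCm38.p6), positions from GENCODE M21. Python 3.11.15 drew the figures.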

Additional observations from a re-analysis of the deposited data

Results flagged for a closer look

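In 6 of 96 sets of EGC or ESC values of a member, 1 library lay far from the others. The cutoff gives about 1 in 20 for values drawn from 1 population. These sets pool labels that differ in level, so that rate need not hold here. Psma2 (556.9 TPM, others 262.5 to 346.6) and Psmg4 (108.1 TPM, others 60.0 to 70.5) were highest in ESC 3, whose chromosome 13 stood apart. Psma6 (557.6 TPM, others 284 to 398.5) was highest in EGC 8, whose chromosome 12 stood apart. Psmc5, on chromosome 11, was also highest in EGC 8 (210.5 TPM, others 149.2 to 178.6). Psmd4 was highest in ESC 6 (199.4 TPM, others 178.1 to 186) and Psmd11 in EGC 9 (194.5 TPM, others 108.4 to 130.5). Without EGC 9, Psmd11 was not called in XX against XY E11.5 EGC (adjusted p = 0.131, by limma).

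The XX against XY effect differed between E11.5 EGC and ESC, by the limma test of the difference itself, for 14 members. The low values of E11.5 XY EGC also enter this test. The differences, EGC minus ESC in log2 units, were 1.257 for Psmb8, 1.054 for Psmb10, 0.567 for Psmc4, 0.525 for Psmb3, 0.476 for Psmc3ip, 0.473 for Psmd6, 0.452 for Psma3, 0.419 for Psmb4, 0.418 for Psmg2, 0.390 for Psma7, 0.347 for Psmb7, 0.323 for Psmc3, 0.317 for Psme1 and -0.792 for Psme4. Their adjusted p ranged from 0.00557 (Psme4) to 0.0453 (Psmb8). With each library left out in turn, Psmb10, Psma7 and Psme4 passed in every fit, with adjusted p of up to 0.0425, 0.0468 and 0.0348.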

How the results depend on the processing

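Depth is unknown, so how well TPM values near 1, such as those of Psmb8 and Psmb9, are measured could not be judged. Labels hold 1 to 3 libraries. Totals of members called stayed within 1.5 times of those reported under a pseudocount of 0.1 TPM, no filter, median-ratio and quantile scaling. The 2 exceptions were 4 in XX EGC against XX ESC with quantile scaling and 8 for the difference of XX effects with no filter. These totals add both directions, and the split by direction was less stable. With median-ratio scaling it went from 15 higher and 1 lower to 6 and 5 between the XY EGC stages. In XX against XY ESC it went from 19 and 7 to 13 and 9. With each library left out, the number called was 17 (without ESC 6) to 24 in XX against XY ESC, 26 (without EGC 7) to 36 (without EGC 4) in XX against XY E11.5 EGC, 10 to 16 between the XY EGC stages, 6 to 16 in E11.5 XY EGC against XY ESC, 3 to 8 in XX EGC against XX ESC, 5 to 17 for the difference of XX effects, and 0 in the other 2 comparisons. With libraries under 1 label taken as correlated (consensus correlation 0.751), EGC against ESC called 0 members. Signs turned only for values that were not called. Psmb9 in E12.5 XY EGC against XY ESC was -0.0339 with median-ratio and -0.0813 with quantile scaling (0.04 as reported). With each library left out, Psmb8 in XX against XY EGC ran from -0.0536 (without EGC 7) to 0.4633. In E12.5 XY EGC against XY ESC, Psmb8 ran from -0.0684 (without EGC 2) to 0.3898, Psmb9 from -0.0277 (without ESC 4) to 0.1042 and Psmb10 from -0.1596 to 0.0459 (without EGC 3; 0.0086 without ESC 6). Psmb8 in XX EGC against XX ESC ran from -0.2005 (without EGC 7; -0.0623 without ESC 1, -0.0747 without ESC 3) to 0.3164, and Psmb9 in the difference of XX effects from -0.0433 (without ESC 3) to 0.2357. The cause was not tested. Psmb9 passed in XX EGC against XX ESC without ESC 3 (-0.49, adjusted p = 0.0124, limma) and in XX against XY EGC with quantile scaling (-0.38, adjusted p = 0.0326, limma). Among the genes named in full, the calls that scaling or no filter ended are Psmb5 in 3 comparisons, Psmb9 in 2 and Psmb6, Psmb7, Psma7, Psmb8 and Psmc4 in 1 each. No paired analysis was possible because the library numbers follow the order of deposit and no label ties an EGC to an ESC library.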
